A study of Mus musculus with 12 samples.

Results

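The long repeat-free intervals are the 1122 genomic intervals of the deposited m6A table that span at least 1000 bases and overlap no annotated repeat other than a simple or low-complexity one. They lie on the 16 autosomes other than 6, 8 and 11, and they are 1.51% of the 74299 intervals in the table. The study profiled N6-methyladenosine (m6A) in chromatin-associated RNA of E14TG2a cells, a mouse embryonic stem cell line grown with LIF, PD0325901 and CHIR99021. The groups were Alkbh5-/- cells (KO), cells with the genotype Alkbh5 del-cIDR (ΔcIDR), in which a stretch of Alkbh5 named cIDR is deleted, and wild-type cells (WT), all of the same line, with 2 libraries each. Both KO columns carry the name KO6, whose meaning is not stated, so both may come from 1 line. Columns named KI were taken as ΔcIDR by elimination, and all 6 as immunoprecipitated, since the submitters' name for the table is an m6A matrix.

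m6A is placed on nascent RNA by the METTL3 and METTL14 writer complex and is removed by the demethylases ALKBH5 and FTO. Chromatin-associated RNA holds nascent transcripts, retained noncoding RNA and RNA from transposable elements, and m6A on such RNA is known to affect its decay through the nuclear reader YTHDC1. Long internal exons and the last exons of mouse transcripts are places where m6A is typically dense. The tables used carry no gene names, and no annotation on their build was used, so each interval is given by its position on GRCm39 as deposited, and cell identity markers and Alkbh5 itself were not checked. Whether a start counts from 0 or from 1 is not stated.

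Each deposited value is a whole number of reads multiplied by 1 factor per library, which makes the m6A-modified spike-in RNA equal in all libraries. This quantity is called signal below. Libraries held between 13234793 and 15145206 interval reads, while the factor rested on 1379 and 1870 spike-in reads in KO, 814 and 849 in ΔcIDR and 1172 and 1106 in WT. With 0 columns read as input, differences in m6A, in RNA amount and in gene copy number cannot be told apart. The labels do not say whether replicates are separate cultures, so p-values reflect the spread between these samples only, which may be technical. With 2 libraries against 2, a two-sided exact permutation test cannot go below p = 0.333, so single values across libraries are given without one.

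The intervals were mostly little longer than the minimum. Their median length was 1251 bases, 816 were under 1500 bases, 223 from there to under 2000, and 83 at least 2000. Together they covered 1559 kb, 3.94% of the length of all intervals. Chromosome 7 held 120, chromosome 2 held 113 and chromosome 1 held 102, and chromosome 14 held 42, the fewest. A simple or low-complexity repeat lay inside 357 of them (31.8%), and 4 consisted wholly of one.

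The distance to the nearest repeat other than a simple or low-complexity one is given for these intervals only, with no comparison to other intervals. The median distance to the nearest other repeat was 654 bases, with quartiles at 288 and 1343 bases, and 1 interval touched its neighbouring repeat. The nearest repeat was a SINE, a short interspersed element, for 711 intervals. Among these it was a B1 element (family Alu in the table) for 299, a B2 for 172 and a B4 for 164. The 92 intervals whose nearest repeat was a LINE-1 had a median of 34.3 signal per kb in WT, against 95.1 signal per kb in WT for the 172 next to a B2.

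The long repeat-free intervals carried more signal per base than short repeat-free intervals of the same autosomes. Their median signal per kb was 65.8 and 45.5 in KO, 123.6 and 115.9 in ΔcIDR, and 71.5 and 81.2 in WT. The corresponding medians of the 16067 short intervals were 35.0 and 23.7 in KO, 60.9 and 59.2 in ΔcIDR, and 37.6 and 42.7 in WT. Long intervals were thus higher in all 6 libraries. On the deposited scale both ΔcIDR libraries stood above both WT libraries, and both KO libraries below them. Members just inside the length limit (1000 to 1009 bases, 29 intervals) had a median WT signal of 96.5 per kb, and intervals just outside it (990 to 999 bases, 38 intervals) had 51.6 per kb. All members under 1500 bases had a median of 71.3 per kb, so these small sets do not show a step at the limit.

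**Figure D1:**
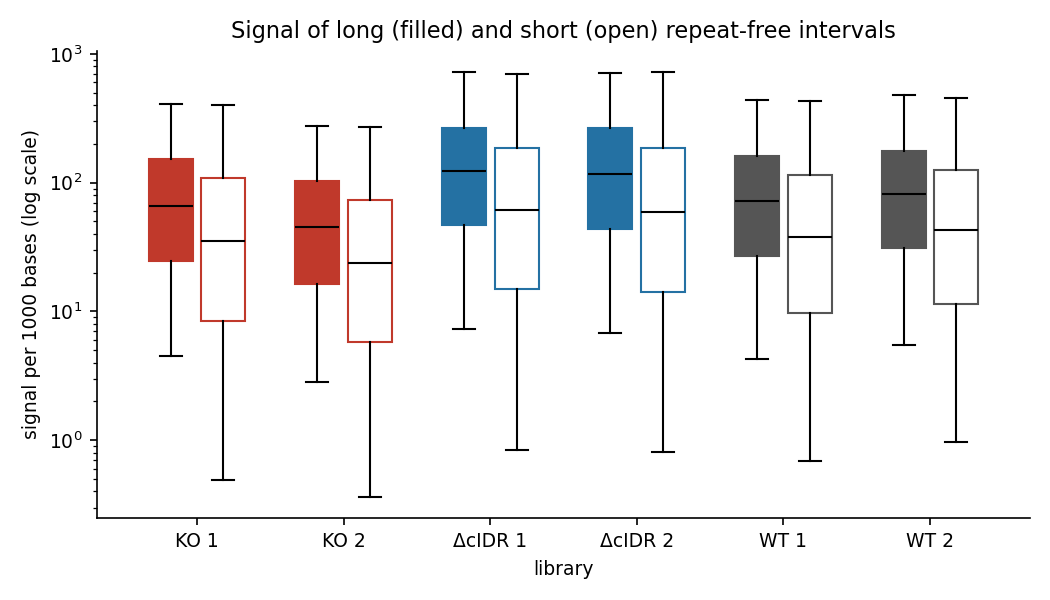
Signal per 1000 bases (log axis) by library, for long repeat-free intervals (filled boxes) and repeat-free intervals under 1 kb on the same autosomes (open boxes). Boxes span the quartiles, lines are medians and whiskers reach the percentiles 5 and 95. In every library the filled median lies above the open one, and the lower whisker of the short intervals reaches further down.

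Depth was high for these intervals. The median reads per interval were 896 and 826.5 in KO, 922 and 954.5 in ΔcIDR, and 806.5 and 836.5 in WT. A mean below 10 reads was found for 22 members (1.96%), against 51.1% of all intervals. The minimum mean signal of 1 used for testing was met by 1103 members (98.3%), against 50.8% of all intervals. It was also met by 14291 of the 16067 short repeat-free intervals. On chromosomes 6, 8 and 11, 236 of 237 repeat-free intervals of at least 1000 bases met it. The members were selected for length, and the part of length in their reads was not tested. Of the 19 members below it, 9 had 0 reads in all 6 libraries, 13 had a LINE-1 as nearest repeat and 9 lay on chromosome 10.

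The long repeat-free intervals took slightly different shares of the interval reads in the 3 genotypes. They held 13.2% and 13.3% in KO, 14.0% and 13.9% in ΔcIDR, and 13.4% and 13.6% in WT, so no groups overlapped. Counted against reads of the same autosomes only, the shares were 17.2% and 17.3% in KO, 17.4% and 17.3% in ΔcIDR, and 16.9% and 17.1% in WT. KO then lay above WT, where it lay below WT over all chromosomes. As a share of repeat-free reads on these autosomes, the intervals held 21.6% and 21.98% in KO, 21.8% and 21.5% in ΔcIDR, and 21.4% and 21.7% in WT, and all 3 groups overlapped. Shares do not depend on the spike-in.

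The 10 densest intervals by WT signal per kb lay on 6 chromosomes and included close pairs. The densest, chr2:52001434-52002992, had 1264 and 926 signal per kb in KO, 2557 and 2883 in ΔcIDR, and 1884 and 1664 in WT. Its neighbour chr2:51999768-52001296 had 1007 and 753 per kb in KO, 2238 and 2374 in ΔcIDR, and 1565 and 1477 in WT. In both intervals the KO libraries were lowest and the ΔcIDR libraries highest, without overlap. A second pair of dense intervals lay on chromosome 1. There chr1:34266742-34268172 had 1273 and 984 per kb in KO, 2561 and 2569 in ΔcIDR, and 1625 and 1759 in WT, and chr1:34229071-34230156 had 1104 and 849 in KO, 2473 and 2302 in ΔcIDR, and 1444 and 1581 in WT. The interval chr4:116467617-116468764 went another way, with 1606 and 1020 per kb in KO, 1750 and 1775 in ΔcIDR, and 1143 and 1237 in WT, so that KO and WT overlapped.

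The longest members were not the densest. The longest of all, chr15:75974189-75987337, spans 13148 bases and had only 3.37 and 3.82 signal per kb in KO, 7.89 and 8.93 in ΔcIDR, and 5.48 and 7.09 in WT. The next, chr12:112742227-112749260, spans 7033 bases and had 28.2 and 22.1 per kb in KO, 47.1 and 33.9 in ΔcIDR, and 29.0 and 36.9 in WT. Both lay below the WT median of 76.1 per kb over all members. The 83 members of at least 2000 bases had a median WT signal of 103 per kb, against 71.3 per kb for those under 1500 bases.

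Replicates differed less in long intervals than in short ones. The SD over members of the difference between replicates, in log2 after centring each library on its median, was 0.19 in KO, 0.29 in ΔcIDR and 0.31 in WT. For short repeat-free intervals it was 0.34 in KO, 0.42 in ΔcIDR and 0.41 in WT, and the part of read depth in this was not tested. Across the 1103 tested members, the difference between ΔcIDR replicates and that between WT replicates had a Pearson r of -0.70. Over short repeat-free intervals this r was -0.37, and over the 1033 members with a mean of at least 100 reads it was -0.77. An interval higher in WT replicate 1 than in WT replicate 2 was thus usually lower in ΔcIDR replicate 1 than in ΔcIDR replicate 2. The difference between KO replicates had r = 0.12 with that of WT. These intervals share their libraries and are no independent replicates, and the cause was not tested.

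**Figure D2:**
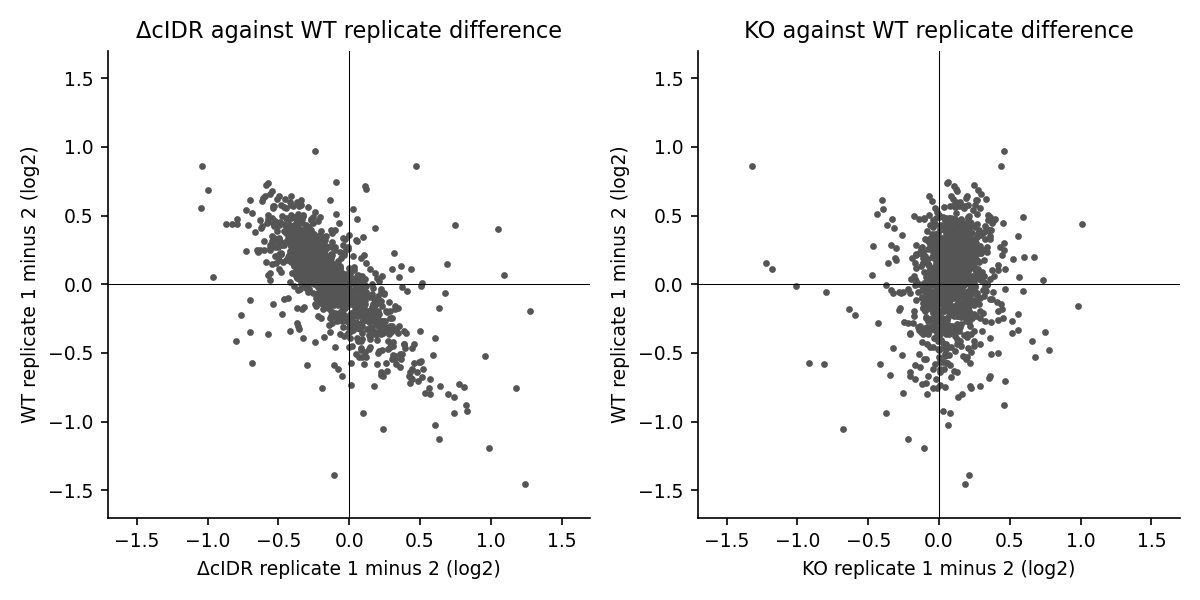
Difference between replicates 1 and 2 (log2, median-centred) for each of the 1103 tested long repeat-free intervals, WT on the vertical axes against ΔcIDR (left) and KO (right) on the horizontal axes. The ΔcIDR panel slopes downward, with r = -0.70, and the KO panel has little slope, with r = 0.12.

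KO was first set against WT, to ask how signal in these intervals differed without the demethylase. On the deposited scale 147 members were lower in KO (13.3% of those tested) and 16 were higher (1.45%), by limma with Benjamini-Hochberg adjustment at 0.05 over all 37759 tested intervals. Over all tested intervals 10.0% were called lower and 0.985% higher. Short repeat-free intervals gave 12.3% lower and 0.777% higher. Since the scale shifted all intervals, with a median log2 change of -0.35, each library was also centred on its median. Then 147 members were lower (13.3%, against 7.28% of all intervals) and 53 higher (4.81%, close to the 4.68% of all intervals). Both KO libraries lay below both WT libraries on the deposited scale in 604 members (54.8%, against 43.8% of all intervals) and above them in 38 (3.45%, against 9.25%). After centring they lay below in 44.0% of members and above in 20.8%, with 39.0% and 18.8% of short repeat-free intervals. Members had more signal than most tested intervals, and the part of signal level in these and later shares was not tested.

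The median log2 change of the members between KO and WT was -0.43 on the deposited scale and -0.12 after centring, while that of all tested intervals was -0.35 and -0.04. Members lay 0.08 below all intervals on both scales. With ERCC RNAs as the scale, members were at -0.035 and all intervals at 0.02. Short repeat-free intervals were at -0.44 on the deposited scale, so members differed from them by 0.01. Per library, the median log2 signal of members over that of all intervals was 3.38 and 3.30 in KO, against 3.48 and 3.43 in WT. Over short repeat-free intervals it was 2.39 in both KO libraries and 2.35 in both WT libraries, a difference in the opposite direction.

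The interval with the largest decrease was chr3:154467879-154469172. It had 10 and 2 reads in KO, which correspond to a signal of 0.989 and 0.146, against 4.77 and 7.15 signal in WT (41 and 58 reads). The log2 change was -2.70 ± 0.44 (SE, adjusted p = 1.9e-07 by limma, or 0.001 after centring). It is on the scale of log2(signal + 0.5), which understates changes near 0. ΔcIDR had 5.87 and 4.50 signal there, which overlapped WT. With 12 KO reads in all, this value has more counting error than most.

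A better covered decrease was found at chr2:115693877-115694967, an interval 7260 bases from the nearest repeat. Its signal was 4.45 and 2.92 in KO, 61.7 and 47.1 in ΔcIDR, and 18.6 and 23.8 in WT. KO was the lowest and ΔcIDR the highest group, with no overlap between any of them. The log2 change between KO and WT was -2.39 ± 0.34 (adjusted p = 2.1e-09 by limma, or 4.1e-05 after centring).

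A pair of members on chromosome 7 fell together in KO. The interval chr7:67385024-67386597 had a signal of 37.0 and 23.1 in KO, 273 and 248 in ΔcIDR, and 114 and 145 in WT. Its log2 change between KO and WT was -2.12 ± 0.31 (adjusted p = 7.3e-09 by limma, or 1.7e-05 after centring). Its neighbour chr7:67408586-67409625 had 18.1 and 14.8 in KO, 164 and 139 in ΔcIDR, and 62.0 and 68.1 in WT, a change of -1.96 ± 0.32. In both, KO lay lowest, ΔcIDR highest and WT between, without overlap. The span from the first to the last base of the pair is 24.6 kb and held 1 short repeat-free interval, at -0.71 after centring, which was not called.

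KO lowest, WT between and ΔcIDR highest, without overlap, was the order in 8 of the 10 named decreases. KO below WT is fixed by the choice of these intervals, and ΔcIDR lay above WT without overlap in most members, as given further on. Signal at chr9:90075007-90076269 was 18.6 and 9.92 in KO, 132 and 103 in ΔcIDR, and 47.1 and 76.3 in WT. At chr1:88627930-88628994, 55 bases from an ERVK repeat, it was 13.3 and 10.6 in KO, 94.9 and 98.7 in ΔcIDR, and 40.0 and 47.7 in WT. At chr17:6781183-6782482 it was 1.19 and 1.09 in KO, 13.9 and 11.6 in ΔcIDR, and 4.31 and 9.99 in WT. The log2 changes of these 3 between KO and WT were -2.10, -1.84 and -2.11.

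Besides the interval on chromosome 3, ΔcIDR and WT overlapped at chr17:34890339-34891859, with 1.29 and 2.12 in KO, 11.2 and 10.9 in ΔcIDR, and 9.66 and 11.2 in WT. Only KO stood apart there. At chr7:26149094-26150209 the signal was 13.7 and 6.49 in KO, 55.5 and 62.3 in ΔcIDR, and 45.0 and 40.3 in WT. At chr4:148324872-148325909 it was 1.78 and 1.24 in KO, 12.9 and 8.84 in ΔcIDR, and 7.57 and 7.89 in WT. The comparisons of KO and of ΔcIDR with WT share the WT libraries, so these values are given side by side only. Of the 10 named decreases 9 stayed past the threshold when any 1 library was left out. The exception, chr17:6781183-6782482, was lost without WT replicate 2.

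Of the 10 named increases in KO, 5 lay on chromosome 7 within 819 kb, between positions 10528657 and 11347600, and these were the only members in that span. The span was chosen after values were seen, by joining called members of 1 direction within 500000 bases of each other. At chr7:10895847-10896919 the signal was 42.7 and 27.1 in KO, 9.55 and 13.8 in ΔcIDR, and 11.2 and 9.74 in WT. At chr7:10528657-10530045 it was 61.2 and 38.5 in KO, 16.8 and 18.5 in ΔcIDR, and 16.8 and 14.8 in WT. In both intervals the KO libraries stood above the other 4, and ΔcIDR and WT overlapped.

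In the remaining members of the span KO again stood above both other groups, and ΔcIDR lay above WT without overlap in 2 of the 3. The interval chr7:10742900-10744019 had 37.5 and 23.6 in KO, 10.6 and 14.3 in ΔcIDR, and 7.33 and 10.98 in WT. At chr7:11134793-11136244 the signal was 10.4 and 7.37 in KO, 3.85 and 3.05 in ΔcIDR, and 1.75 and 2.71 in WT. At chr7:11346456-11347600 it was 19.98 and 11.3 in KO, 7.54 and 7.39 in ΔcIDR, and 4.77 and 5.55 in WT. The log2 changes between KO and WT over the 5 ranged from 1.46 to 1.78, and after centring their median was 1.98.

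Intervals of other classes in the same span rose too. All 12 short repeat-free intervals there were tested, with a median of 1.94 after centring, and 11 were called higher in KO on the deposited scale and 1 lower. Of 21 intervals with a repeat 13 were tested, with a median of 1.53 after centring, and 8 were called higher. Calls in this span were thus made in long, in short and in repeat-holding intervals.

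Other increases were isolated or paired. The interval chr1:80361452-80362705 had 38.8 and 25.4 in KO, 10.2 and 9.80 in ΔcIDR, and 9.66 and 9.13 in WT, a log2 change between KO and WT of 1.69 ± 0.35 (adjusted p = 9.4e-05, limma). At chr2:63808879-63810032 the signal was 8.41 and 5.47 in KO, 2.68 and 2.09 in ΔcIDR, and 1.40 and 1.97 in WT. At chr10:58593641-58594708 it was 39.2 and 29.0 in KO, 12.4 and 15.1 in ΔcIDR, and 14.5 and 12.8 in WT. KO stood above both other groups in these 3 intervals. At chr1:119344319-119345853 it was 145 and 100.7 in KO, 85.0 and 96.4 in ΔcIDR, and 48.1 and 47.4 in WT, so that ΔcIDR lay between the other groups. ΔcIDR also lay above WT without overlap, by smaller distances, at chr1:80361452-80362705 and chr2:63808879-63810032.

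A pair on chromosome 9 lay 1 kb apart. The interval chr9:16288418-16289543 had 10.9 and 4.74 in KO, 1.68 and 2.89 in ΔcIDR, and 1.86 and 3.08 in WT. Its neighbour chr9:16286358-16287369 had 9.79 and 7.15 in KO, 1.68 and 3.53 in ΔcIDR, and 3.96 and 2.96 in WT. Both were called higher in KO, and ΔcIDR and WT overlapped in both. The first had only 10 and 18 reads in ΔcIDR and 16 and 25 reads in WT.

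**Figure D3:**
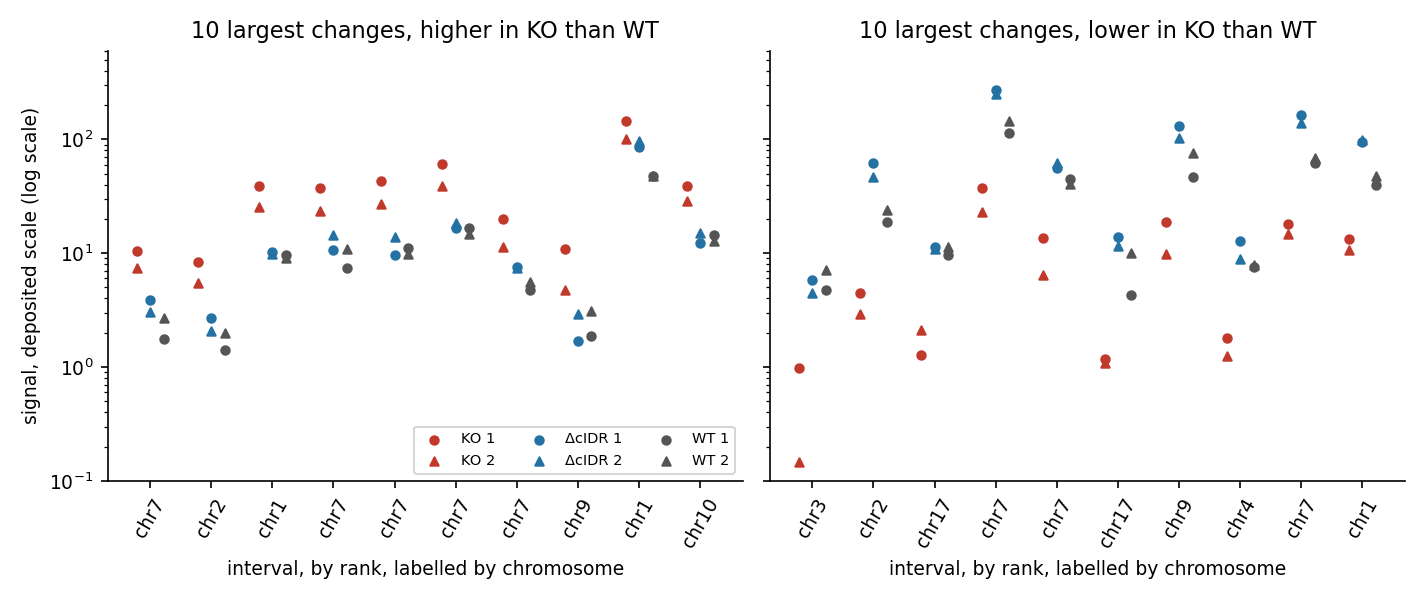
Signal on the deposited scale (log axis) of the 10 members with the largest increase (left) and the 10 with the largest decrease (right) in KO against WT, in order of rank and labelled by chromosome. Circles are replicate 1 and triangles replicate 2. KO points lie above all WT points on the left and below them on the right, which the choice of intervals fixes, and ΔcIDR points lie near WT in most increases and above WT in several decreases.

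These calls leaned on single libraries. The count of 163 called members became 685 without KO replicate 1 and 82 without KO replicate 2, 73 without either ΔcIDR replicate, and, for WT, 37 without the first replicate and 18 without the second. Of the 10 named increases, 9 lost their call on leaving out at least 1 library, 7 of them without WT replicate 1. On the scale of the unmodified spike-in no member was called by limma, with 23 at an unadjusted p under 0.05. That spike-in had 4364 and 2679 reads in KO and 4580 and 1729 in WT. This scale thus sets replicates of the same group apart, and the part of this in the lack of calls was not tested.

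ΔcIDR was set against WT to ask how loss of the cIDR stretch, rather than of the enzyme, went with signal. Here 22 members were called higher (1.99% of those tested) and 1 lower (0.0907%) on the deposited scale, against 1.04% higher and 0.0874% lower over all tested intervals. Once centred, 5 were called higher (0.453%, against 0.167% of all intervals) and 1 lower (0.0907%, against 0.138%). On the deposited scale both ΔcIDR libraries lay above both WT libraries in 989 members (89.7%, against 58.7% of all intervals) and below them in 6 (0.544%, against 3.90%). They lay above in 75.9% of short repeat-free intervals, and in 85.6% of repeat-free intervals of at least 1000 bases on chromosomes 6, 8 and 11. After centring they lay above in 51.4% of members and below in 4.35%, with 38.6% and 9.75% of short repeat-free intervals. Few members passed the test, although most leaned one way. Of the 1103 tested, 1078 had a log2 change above 0 on the deposited scale (97.7%, against 84.2% of all intervals), and 949 after centring (86.0%, against 56.2%). With ERCC RNAs as the scale the share was 46.6% (against 32.1% of all intervals), and with the unmodified spike-in it was 1.45% (against 3.64%).

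The size of this lean depended on the scale, and its position against all tested intervals less so. The members' median log2 change between ΔcIDR and WT was 0.64 on the deposited scale and 0.23 after centring, but -0.016 with ERCC RNAs and -0.54 with the unmodified spike-in. It was 0.24 on the scale of reads in repeat loci outside the intervals. All tested intervals had a median of 0.46, 0.06, -0.15, -0.64 and 0.09 on these scales in the same order. The members' median was above that of all intervals on each of the 5, by between 0.10 and 0.17. Short repeat-free intervals had a median of 0.60 on the deposited scale, 0.04 below that of the members. This distance was 0.04 after centring, 0.03 with repeat loci, 0.02 with ERCC RNAs and 0.009 with the unmodified spike-in. Most of the lean was thus shared with short repeat-free intervals.

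Per library, the median log2 signal of members over that of all tested intervals was 3.62 and 3.80 in ΔcIDR, against 3.48 and 3.43 in WT. The difference was 0.26 ± 0.09 (SE, n = 2 libraries each), and the groups did not overlap. Over short repeat-free intervals the values were 2.41 and 2.47 in ΔcIDR, against 2.35 in both WT libraries. Over intervals mostly covered by a transposable element they were 4.85 and 5.16 in ΔcIDR, against 4.64 and 4.54 in WT. The difference between ΔcIDR and WT was thus 0.09 against short repeat-free intervals and 0.41 against repeat-covered ones.

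The increase of largest size between ΔcIDR and WT was at chr13:63713080-63714157, of which 13.5% is simple repeat. Its signal was 181 and 152 in ΔcIDR, against 55.4 and 76.7 in WT, a log2 change of 1.34 ± 0.32 (adjusted p = 0.0083, limma). KO had 40.6 and 22.7. The same test gave 1.33 ± 0.34 (adjusted p = 0.021, limma) for chr2:115693877-115694967, whose values are given above and which had also the second largest decrease in KO.

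Among the other named increases, chr1:189582416-189583690 had 363 and 350 in ΔcIDR, against 135 and 171 in WT. At chr1:37299772-37301415 the signal was 484 and 486 in ΔcIDR, against 204 and 217 in WT. At chr17:84873380-84874444 it was 251 and 229 in ΔcIDR, against 94.0 and 111 in WT. Their log2 changes were 1.23, 1.20 and 1.23, and each of these, like chr13:63713080-63714157, was also called after centring. In KO these intervals had 62.2 and 42.9, 87.8 and 55.3, and 78.6 and 55.7, in the order named.

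The others passed on the deposited scale alone. Signal at chr9:85726595-85727908 was 53.6 and 52.5 in ΔcIDR, against 18.4 and 24.9 in WT. At chr15:98489428-98490477 it was 19.6 and 22.2 in ΔcIDR, against 6.52 and 9.99 in WT. At chr17:35188938-35190721 it was 220 and 187 in ΔcIDR, against 80.5 and 97.4 in WT, and at chr2:102280502-102281574 it was 24.6 and 27.6 in ΔcIDR, against 10.8 and 11.1 in WT. Their adjusted p-values by limma on the deposited scale were between 0.023 and 0.046.

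Only 1 member was called lower in ΔcIDR than in WT, chr16:51903446-51904800. Its signal was 7.54 and 2.89 in ΔcIDR, against 11.8 and 12.8 in WT, a log2 change of -1.29 ± 0.37 (adjusted p = 0.049, limma). KO had 8.41 and 5.18. The members next in p did not pass, with chr7:45268347-45270003 at -0.78 (adjusted p = 0.16, limma) and chr1:164362803-164363827 at -0.77 (adjusted p = 0.22, limma).

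Each of the 10 named increases lost its call when any 1 of the ΔcIDR or WT libraries was left out. Over all members the count of 23 became 1 without the first ΔcIDR library and 0 without the second, or without either WT library. It became 789 without KO replicate 1 and 793 without KO replicate 2. edgeR's quasi-likelihood test on whole reads called 12 members on the deposited scale and 3 with TMM factors.

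ΔcIDR and KO differed at far more members than either did from WT. On the deposited scale 862 were higher in ΔcIDR (78.2% of those tested) and 15 lower (1.36%), against 47.3% higher and 1.57% lower over all tested intervals. Short repeat-free intervals gave 66.9% higher and 0.952% lower. As above, the part of signal level in these contrasts was not tested. After centring, 441 were higher (40.0% of those tested) and 67 lower (6.07%), against 17.6% and 9.92% over all intervals. On the deposited scale the libraries of ΔcIDR all lay above those of KO in 991 members (89.8%, against 67.6% of all intervals) and below them in 24 (2.18%, against 5.83%). After centring they lay above in 64.6% of members and below in 13.1%, with 52.8% and 14.8% of short repeat-free intervals. Among short repeat-free intervals 26.8% were called higher and 4.70% lower after centring. The members' median log2 change was 1.07 on the deposited scale, 0.35 after centring and 0.028 with ERCC RNAs, and -0.31 with the unmodified spike-in. The median of all intervals on these scales was 0.79, 0.07, -0.19 and -0.50, below that of the members on each. Short repeat-free intervals were close to the members, with 1.02, 0.30, 0.008 and -0.315. Members lay above them by 0.06 on the deposited scale and by 0.008 with the unmodified spike-in.

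**Figure D4:**
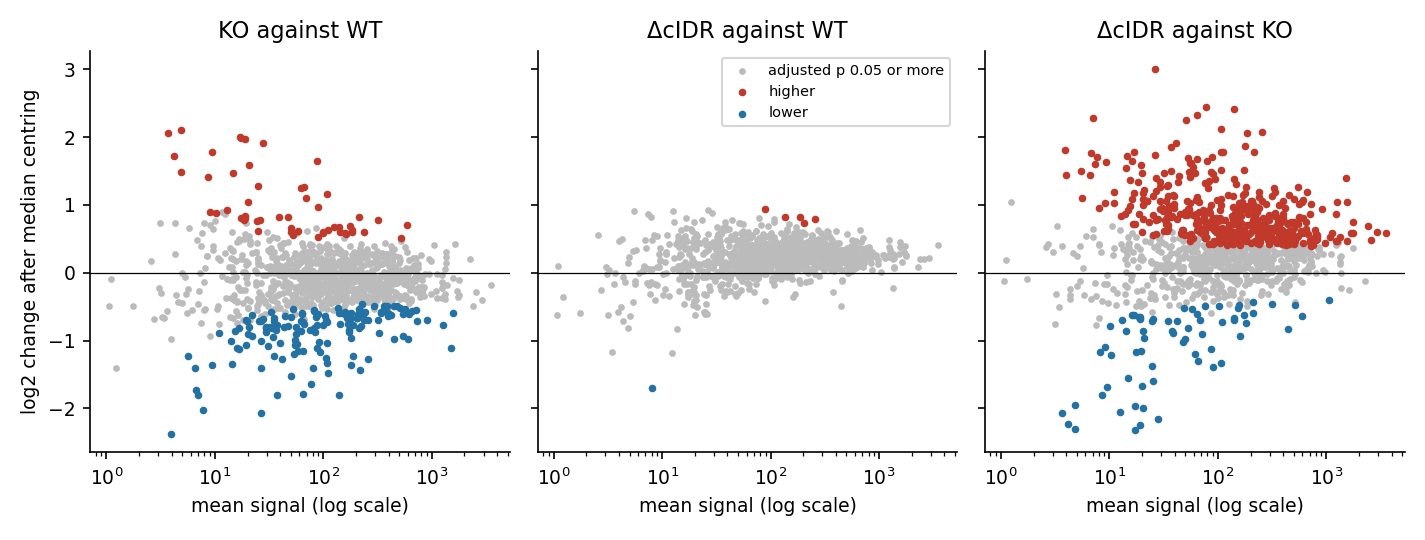
Log2 change after median centring against mean signal (log axis) for the 1103 tested long repeat-free intervals in each comparison, with members past an adjusted p of 0.05 in colour. In KO against WT 53 are higher and 147 lower, in ΔcIDR against WT 5 and 1, and in ΔcIDR against KO 441 and 67.

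The intervals that separated these mutants most were largely those already described. The largest difference was at chr2:115693877-115694967, with a log2 change of 3.72 ± 0.34 (adjusted p = 3.1e-24 by limma, or 4.6e-07 after centring). This is a fold of 13.2 on the scale of signal plus 0.5. The chromosome 7 pair followed, with 3.17 ± 0.32 at chr7:67408586-67409625 and 3.13 ± 0.31 at chr7:67385024-67386597. Then came chr9:90075007-90076269 at 3.05 ± 0.32 and chr17:6781183-6782482 at 3.01 ± 0.39. None of these 5 lost its call when any 1 library was left out.

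In the other direction, chr1:80361452-80362705 was lower in ΔcIDR than in KO by a log2 change of -1.60 ± 0.35 (adjusted p = 4.2e-05, limma). The chromosome 9 pair had -1.58 at chr9:16286358-16287369 and -1.51 at chr9:16288418-16289543, and both calls were lost without ΔcIDR replicate 1, the second also without KO replicate 1. The other named decreases were on chromosome 7, with -1.53 at chr7:10895847-10896919 and -1.44 at chr7:10528657-10530045. Over all members the count of 877 became 369 without ΔcIDR replicate 1 and 473 without ΔcIDR replicate 2, and with no member called on the unmodified spike-in scale by limma, 39 had an unadjusted p under 0.05.

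Dense intervals took part in this difference. At chr4:123366287-123367645, among the 10 densest, signal per kb was 1714 and 1901 in ΔcIDR, against 480 and 361 in KO. The log2 change was 2.12 ± 0.31 (adjusted p = 8.2e-10 by limma, or 4e-05 after centring). WT had 1192 and 1057 per kb there, and KO was called lower than WT (-1.43 ± 0.31, adjusted p = 0.00028, limma). At chr17:37320448-37321641 the density was 2415 and 1822 in ΔcIDR, against 700 and 542 in KO, with 962 and 1391 in WT.

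Most neighbouring members had similar log2 changes. Of 71 pairs of consecutive members within 10000 bases, 63 had both members tested. Across these pairs the log2 changes of the first and second member had a Pearson r of 0.78 for KO against WT, 0.73 for ΔcIDR against WT and 0.88 for ΔcIDR against KO. The median absolute difference within a pair was 0.09, 0.07 and 0.12 in that order. Both changes had the same sign in 48, 54 and 59 of the 63 pairs. Some pairs differed widely, such as -0.93 and 0.17 for KO against WT after centring. Across 156 tested pairs within 50000 bases r was 0.57, 0.54 and 0.64. Both members of a pair were measured in the same libraries, and no test is attached.

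**Figure D5:**
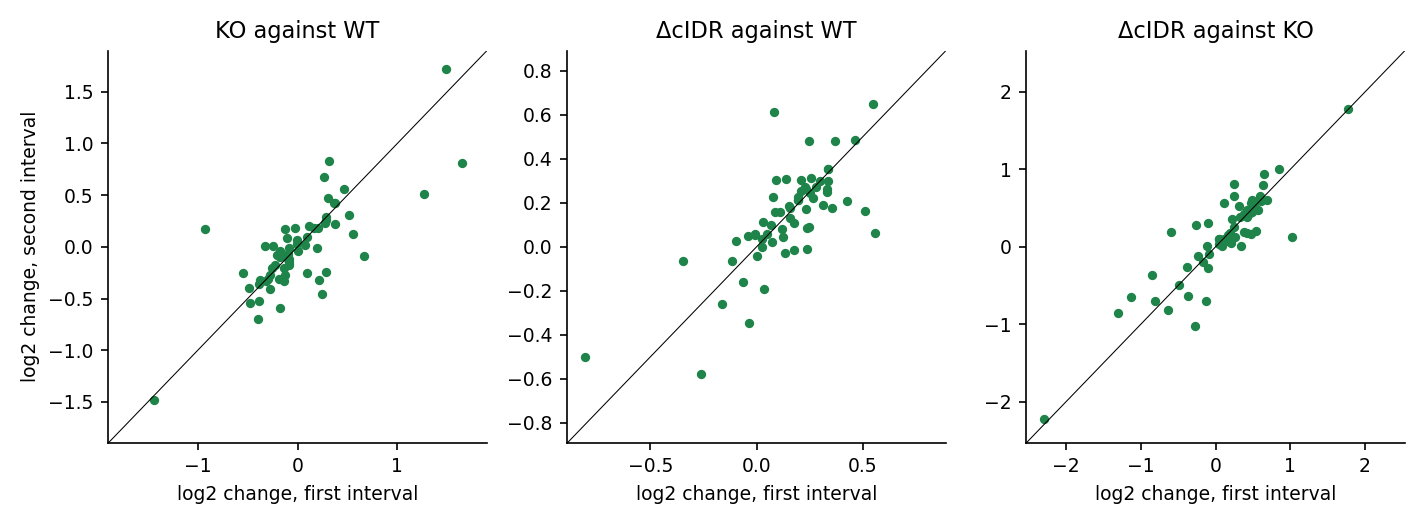
Log2 change after median centring of the second member of a pair against that of the first, for 63 pairs of consecutive long repeat-free intervals within 10000 bases. Points scatter about the line of equal change in all 3 comparisons, with r of 0.78, 0.73 and 0.88 from left to right, and some pairs lie far from it. The axes differ between panels.

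Most members stood alone, with 997 having no other member within 10000 bases, and there were 47 runs of 2 and 3 runs of 3. The 4 longer runs held 4 to 7 members each. In the run of 4 on chromosome 19 the signal per kb was highest in the last member in all 6 libraries. Its first member, chr19:8986748-8987919, had 272 and 194 signal per kb in KO, 492 and 519 in ΔcIDR, and 332 and 354 in WT. Its last, chr19:8993575-8994610, had 587 and 437 per kb in KO, 847 and 1044 in ΔcIDR, and 694 and 584 in WT. None of the 4 was called against WT in KO or in ΔcIDR.

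The run of 5 on chromosome 15 began with the longest member and was uneven in level. Its second member, chr15:75987476-75989428, had 1.77 and 1.61 signal per kb in KO, 3.95 and 4.94 in ΔcIDR, and 3.40 and 3.16 in WT. The third, chr15:75989630-75991161, starts 202 bases further on and had 141 and 108 per kb in KO, 232 and 239 in ΔcIDR, and 180 and 186 in WT. The step in level between these neighbours was present in all 6 libraries.

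The run of 6 on chromosome 18 differed in direction from most members. Its first, chr18:37795373-37797380, had 56.3 and 35.3 signal per kb in KO, 28.5 and 30.8 in ΔcIDR, and 21.8 and 24.1 in WT, and was called higher in KO than in WT (log2 change 0.95 ± 0.32, adjusted p = 0.032, limma). The log2 changes of the other 5 between KO and WT were between -0.19 and 0.24 on the deposited scale and between 0.13 and 0.55 after centring. After centring, 4 of the 11 members in this 1 Mb window were called higher in KO, a window noted after values were seen.

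The run of 7 on chromosome 10 was nearly empty. Its members lie at regular gaps of 7345 to 7424 bases, and each is close to a repeat. In 6 of the 7 no library had more than 16 reads, and 4 had 0 reads in all libraries, which allows up to 3 reads in each library, for counting error only. The last, chr10:104031109-104032260, had 24.8 and 14.6 signal per kb in KO, 10.6 and 10.5 in ΔcIDR, and 7.08 and 9.75 in WT. It was called higher in KO than in WT (log2 change 1.16 ± 0.35, adjusted p = 0.014, limma).

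Some called decreases in KO lay within short distances of each other. Joining called members within 500000 bases of each other gave 13 places with 2 or 3 decreases. These held 28 of the 147 members called lower. It also gave 2 places with increases, which held 7 of the 16 called higher. How many such places the spacing of members alone would give was not tested. At chr10:3906840-3914506 both members in the span were called lower, with a median of -1.46 after centring. Between positions 34890339 and 35190721 of chromosome 17, 3 of 4 members were called lower, with a median of -1.09 after centring. The 6 tested short repeat-free intervals there had a median of -0.02, and 1 of them was called lower. Between positions 105623519 and 105894560 of chromosome 3, both members and all 3 intervals with a repeat were called lower. The 1 short repeat-free interval there was at 0.07 after centring and not called. At the other places that held short intervals, their median after centring ranged from -0.10 to -0.91, against -0.12 for the whole short class. On chromosome 1, between positions 37299772 and 37664976, it was -0.12, with 0 of 5 called lower. Between positions 28718690 and 28913170 of chromosome 7 their median was -0.91 after centring, with 3 of 5 called lower. Between positions 80146806 and 80172223 of chromosome 10 it was -0.71, with 2 of 7 called lower. Between positions 75617868 and 76065996 of chromosome 15, 2 of 10 members were called lower. The 16 tested short intervals there had a median of -0.22, with 0 called lower.

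After centring, the members' median log2 change between KO and WT was below 0 on 15 of the 16 chromosomes, and that of all tested intervals on all 16. The members' median was below that of all intervals on 12 of them and above it on 4, which were chromosomes 2, 12, 18 and 19. It was -0.24 on chromosomes 9 and 15, where all intervals had -0.10 and -0.06, and 0.06 on chromosome 18, where all intervals had -0.04. Between ΔcIDR and WT the members' median after centring was above 0 on all 16, from 0.10 on chromosome 18 to 0.32 on chromosome 10. It was above that of all tested intervals of the same chromosome on each, by 0.08 on chromosome 19 and 0.26 on chromosome 10 at the extremes. With ERCC RNAs as the scale the median over all members turned to -0.016, as given above.

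Other properties went with small differences. Members with a simple repeat inside had a median change after centring of -0.17 between KO and WT and 0.28 between ΔcIDR and WT. Members without one had -0.09 and 0.22. Splitting members into 4 classes of equal size by WT signal per kb, the median between ΔcIDR and WT was 0.12 in the lowest class and 0.22, 0.25 and 0.25 in the others. Length made little difference, with 0.24, 0.23 and 0.21 for members under 1500 bases, from there to under 2000, and of at least 2000 bases. The 10 tested members nearest to an ERVL repeat had 0.15 between KO and WT, above 0, and the 13 nearest to a TcMar-Tigger DNA transposon had -0.37. These are descriptions with no test.

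Repeat-free intervals of at least 1000 bases on chromosomes 6, 8 and 11, which the selection leaves out, had another level in KO. The 236 tested there had a median log2 change between KO and WT of -0.22 on the deposited scale and 0.09 after centring, against -0.43 and -0.12 for the members. After centring 11.4% of them were called higher and 8.05% lower in KO. Between ΔcIDR and WT their median was 0.57 on the deposited scale and 0.17 after centring, against 0.64 and 0.23 for the members.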

How the data were processed

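Per the labels' protocols, ribosomal RNA was removed with RiboMinus, m6A spike-in RNA was added before fragmentation, and fragments went through an m6A antibody and a stranded SMARTer library kit. Per the submitters' processing notes, the work used the GRCm39 assembly with bedtools, fastp, featureCounts, HISAT2, MACS2, Picard and SAMtools. Versions, roles and how intervals were defined are not given in the sources used here. The deposited tables hold a signal that the authors scaled to spike-in RNA, for intervals and for repeat loci. 100% of values were whole reads times 1 factor per library, within 1e-06. Even numbers made up 56.3% to 58.5% of interval values between 1 and 20 reads, and the cause was not tested. 0 columns were left unmapped.

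Intervals were classed by overlap with repeat loci in bedtools 2.31.1. limma 3.58.1 in R 4.3.3 was fitted to log2(signal + 0.5), with 1 mean per group over all 6 libraries, for the 37759 intervals with a mean signal of at least 1, and adjusted p-values follow Benjamini and Hochberg. Centring subtracts each library's median over these intervals. edgeR 4.0.16 was run on the recovered reads as an alternative, and other scales, pseudocounts, filters, left-out libraries and a replicate block were tried. The fit was tested on simulated data. Tables were handled in Python 3.11.15 with pandas 2.3.3. Intervals named were called members with no overlap of groups, the 10 of largest size per direction (5 between ΔcIDR and KO, or the 3 lowest in p if under 3 were called), the 10 densest in WT, the 5 longest and those in runs; a selection is given. The members and lists were chosen with earlier results of these data known.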

Additional observations from a re-analysis of the deposited data

How the results depend on the processing

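On the deposited scale 163 members were called between KO and WT, 23 between ΔcIDR and WT and 877 between ΔcIDR and KO. In that order of comparisons, the counts were 265, 8 and 581 on the scale of reads in repeat loci, and 0 each on that of the unmodified spike-in by limma (23, 3 and 39 at an unadjusted p under 0.05). Centring gave 200, 6 and 508 and ERCC RNAs 216, 1 and 385. edgeR gave 160, 12 and 859 on the deposited scale and 239, 3 and 445 with TMM factors. With no filter on low signal, limma called 0, 0 and 265 (279 and 437 at an unadjusted p under 0.05 where 0). A pseudocount of 2 gave 154, 34 and 878, and a minimum mean signal of 5 gave 169, 28 and 879. Members of at least 2000 bases gave 8, 1 and 64, and members with no repeat of any kind 105, 15 and 591, from fewer intervals. Leaving out 1 library gave 18 to 685, 0 to 793 and 369 to 998, and after centring, an alternative chosen after seeing the data, 62 to 240, 0 to 7 and 228 to 514. Median log2 changes of the members were -0.12, 0.23 and 0.35 after centring, -0.035, -0.016 and 0.028 with ERCC RNAs, -0.12, 0.24 and 0.37 with repeat loci, and -0.22, -0.54 and -0.31 with the unmodified spike-in. The sign of the last 2 comparisons thus depends on the scale. Per library, the deposited scale rests on 814 to 1870 reads of m6A-modified spike-in. The unmodified spike-in had 4364 and 2679 reads in KO, 5127 and 4239 in ΔcIDR, and 4580 and 1729 in WT, so its scale sets replicates apart. The ERCC RNAs had 90392 to 113689 reads. Replicate numbers did not pair the samples. Deviations of same-numbered samples correlated at 0.08 for KO and WT, -0.29 for ΔcIDR and WT and -0.15 for ΔcIDR and KO over all tested intervals. With the replicate block the counts were 72, 0 (297 at an unadjusted p under 0.05) and 735, and with the block after centring 128, 1 and 380. With the ΔcIDR numbers crossed, also chosen after seeing the data, they were 171, 27 and 887. None of the 43 changes named for their size or p turned in direction under the scales, tests, pseudocount, block and left-out libraries run for them. Many lost their call, however: 41 on the unmodified spike-in scale, 11 with ERCC RNAs and 11 with the replicate block. On the unmodified spike-in scale the largest change of any member between ΔcIDR and WT was 0.19. Changes of the densest, longest and run members were set only against centring, where some turned, such as chr2:180301001-180304321 between KO and WT, at -0.10 on the deposited scale and 0.21 after centring. The cause of these movements was not tested.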
